A study of Mus musculus with 5 samples.

Results

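The 40 glycosaminoglycan synthesis and sulfation genes described here were taken by target name from the table of all regions, and all 40 were measured among 19346 targets. They comprise 5 genes that supply sulfate and sugar precursors, 6 that build the linker sugars, 16 enzymes of chondroitin and dermatan sulfate and 13 enzymes of heparan sulfate. GeoMx profiling was used on sections of mouse knees at E14.5 (embryonic day), an assay of RNA in which barcoded probes are released by light from regions drawn on a stained section and then counted. The series concerns signalling by the PDGF receptor alpha in cartilage and fibrous tissue as joints form. There were 2 GOF animals (Prrx1-Cre with a gain-of-function Pdgfra allele; 47 and 46 regions) and 2 control animals (Prrx1-Cre alone; 46 and 40 regions), so that all 4 carried the Cre driver, which acts in limb bud mesenchyme and not in one cell type of the joint. The origin of the allele is not described in the labels. Regions were drawn with the aid of Sox9 protein staining, and no label defines the region tags. The region types are called fusion (Sox9-high interzone by its tag, drawn in GOF knees alone), inter-joint space (Sox9-low interzone), inter-joint perichondrium, border-zone cartilage, and a reference cartilage and a reference mesenchyme region, each 1 per animal.

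Glycosaminoglycans are long, sulfated sugar chains carried by core proteins. Chondroitin sulfate on aggrecan draws water into cartilage, and heparan sulfate on glypicans, syndecans and perlecan binds growth factors such as FGF, BMP, Wnt and hedgehog proteins. Both kinds of chain start from the same linker and use the same activated sulfate. Their sulfation pattern is set by sulfotransferases in the Golgi and, for heparan sulfate, is trimmed outside the cell by the endosulfatases Sulf1 and Sulf2, which remove 6-O-sulfate groups.

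Counts per region summed to between 55470 and 617053, with a median of 217175, and the negative probe, which measures background, had a median of 2.81. By animal that median was 2.97 and 2.29 in GOF replicates 1 and 2 and 3.06 and 2.76 in control replicates 1 and 2. The mean of 36 of the 40 genes was over 2 times that of the negative probe, as it was for 55.6% of all targets. B3galt6, Chst7, Chst13 and Glce were not, so their differences may be understated. All levels are upper-quartile-normalised values averaged on the log2(value + 1) scale over the regions of an animal, and differences between groups are on that scale, with the standard error (SE) of the fit. The summed level of the 10 cartilage markers was 3524 and 4884 in GOF border-zone cartilage and 4544 and 4885 in control border-zone cartilage, 2755 and 3448 in fusion, and 771 and 977 in GOF inter-joint space against 696 and 657 in control inter-joint space. That of the 10 interzone markers was 281 and 323 in GOF inter-joint space against 563 and 605 in control inter-joint space, and 204 and 204 in fusion. The 8 skeletal muscle markers, at 831 to 1289 in reference mesenchyme, summed to 31.7 to 68.4 elsewhere. Pdgfra itself had a level of 82.3 and 100.3 in GOF inter-joint space and 92.9 and 106.2 in control inter-joint space, and its transcript level does not check the genotype. Fewer cells of a type and less RNA per cell cannot be told apart in such regions.

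Among these genes, the results turn on Papss2, Extl1, Sulf1 and Sulf2, and the promoter letters of the first 2 and of Sulf2 are shown because these genes move together or in opposition between cartilage and joint space. Each line gives 250 bases before a transcription start, 5′ to 3′ on the gene's strand, from RefSeq (GRCm38.p6). Capitals mark matches, on either strand, to AACAAT (bound by SOX factors), GCGNGGGCG (bound by EGR factors) or TATAAA (the TATA box).
Papss2, chr19:32595465-32595714, plus strand: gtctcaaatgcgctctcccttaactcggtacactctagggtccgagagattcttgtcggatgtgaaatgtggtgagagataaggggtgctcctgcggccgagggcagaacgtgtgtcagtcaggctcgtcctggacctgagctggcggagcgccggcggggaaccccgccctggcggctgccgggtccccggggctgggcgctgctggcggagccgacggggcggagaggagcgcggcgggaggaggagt
Papss2, chr19:32619755-32620004, plus strand: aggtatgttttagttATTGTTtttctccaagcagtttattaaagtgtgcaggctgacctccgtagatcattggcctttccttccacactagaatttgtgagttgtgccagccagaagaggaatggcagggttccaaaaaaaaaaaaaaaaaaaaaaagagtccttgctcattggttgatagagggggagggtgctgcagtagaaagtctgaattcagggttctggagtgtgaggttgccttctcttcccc
Extl1, chr4:134372548-134372797, minus strand: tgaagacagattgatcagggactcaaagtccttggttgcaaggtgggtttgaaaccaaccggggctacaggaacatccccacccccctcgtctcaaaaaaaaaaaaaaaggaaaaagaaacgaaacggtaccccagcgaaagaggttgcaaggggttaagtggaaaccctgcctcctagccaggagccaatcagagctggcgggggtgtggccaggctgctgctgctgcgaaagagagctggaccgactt
Sulf2, chr2:166155684-166155933, minus strand: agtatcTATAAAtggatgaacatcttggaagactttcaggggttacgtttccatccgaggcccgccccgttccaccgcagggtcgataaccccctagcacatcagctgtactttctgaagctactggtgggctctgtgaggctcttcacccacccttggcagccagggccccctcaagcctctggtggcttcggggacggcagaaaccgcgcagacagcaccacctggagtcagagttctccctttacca
Sulf2, chr2:166155286-166155535, minus strand: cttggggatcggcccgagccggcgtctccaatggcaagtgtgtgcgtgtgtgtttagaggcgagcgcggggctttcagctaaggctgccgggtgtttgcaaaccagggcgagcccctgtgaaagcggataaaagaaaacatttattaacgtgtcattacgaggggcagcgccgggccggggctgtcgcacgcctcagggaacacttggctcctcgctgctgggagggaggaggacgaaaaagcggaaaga
The second Papss2 window holds 1 match to the SOX letters, on the minus strand, and the first Sulf2 window holds 1 match to the TATA letters. The Extl1 window and the other Papss2 and Sulf2 windows hold none of the 3 motifs. No 2 matches overlap in the windows shown. RefSeq windows were matched for 32 of the 40 genes (40 windows), and Sulf1 is not among them. The SOX letters stand in 2 of these 40 windows (Papss2 and Extl2) and in 9.42% of all 32851 windows. The EGR letters stand in 6 (Chst14, Dsel, Extl2, Fam20b, Hs6st1 and Ugdh) and in 4.7% of all windows, and the TATA letters in 2 (Hs6st2 and Sulf2) and in 12.4% of all windows. A match is a description of letters and not of binding.

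In control knees, Papss2 and Extl1 were lower and the endosulfatase genes Sulf1 and Sulf2 higher in inter-joint space than in border-zone cartilage, and without the reference regions all 5 supply genes and 5 of the 16 chondroitin and dermatan enzymes were lower in the space as well. Inter-joint space was set against border-zone cartilage in controls to place each gene before the genotypes were compared. In the limma fit over all region types, 4 of the 40 genes passed an adjusted p of 0.05 (Benjamini-Hochberg over all targets), 2 higher and 2 lower in the space, against 1.3% of all targets. In the limma fit of the joint region types alone, which leaves out the reference types of 1 region per animal, 15 passed, 2 higher and 13 lower, against 7.43% of all targets. By edgeR's quasi-likelihood test on the recovered counts 14 passed, against 5.93%. Without control replicate 1 or without control replicate 2 the fit over all types passed Papss2 alone and that of the joint types 10 and 9 genes, the lone control being assumed to vary like the other groups.

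Papss2, a synthase of the sulfate donor PAPS whose loss stunts the skeleton in mice, had levels of 24.3 and 25.9 in control inter-joint space and 90.3 and 99.3 in control border-zone cartilage (log2 difference -1.87, SE 0.23, adjusted p = 4.94e-05 in the limma fit over all region types). Its control perichondrium levels, 53.8 and 45.1, lay between these without overlap. The gene spans chr19:32595669-32667187. Slc26a2, the sulfate importer of chondrocytes, had 11.99 and 9.90 in the space and 24.8 and 26.4 in border-zone cartilage, and its difference passed only without the reference types (-1.16, SE 0.13, adjusted p = 2.29e-09 in that limma fit). The other 3 supply genes followed the same order in that fit. Papss1, the second PAPS synthase, had 14.1 and 13.6 in the space and 23.5 and 25.7 in border-zone cartilage (-0.78, SE 0.13). Ugdh, which makes UDP-glucuronate, had 11.9 and 11.96 in the space and 22.8 and 22.7 in border-zone cartilage (-0.87, SE 0.12). Slc35b2, which carries PAPS into the Golgi, had 16.3 and 14.9 in the space and 22.1 and 21.1 in border-zone cartilage (-0.45, SE 0.14). All 5 supply genes passed there, and in each of them both space values lay below both border-zone values, as held for 17.8% of all targets.

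Of the 6 linker genes, 2 passed in the same limma fit without the reference types. Xylt1, a xylosyltransferase that starts the linker, had 13.2 and 11.99 in control inter-joint space and 24.9 and 24.1 in control border-zone cartilage (-0.90, SE 0.13, adjusted p = 8.68e-07). Fam20b, the kinase that phosphorylates the linker xylose, had 14.6 and 10.6 in the space and 17.9 and 17.3 in border-zone cartilage (-0.47, SE 0.13). Xylt2, the other xylosyltransferase, and the galactosyl- and glucuronosyltransferases B4galt7, B3galt6 and B3gat3 had differences between -0.15 and 0.21, and none passed.

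Of the 16 chondroitin and dermatan enzymes, 5 passed in that fit, all lower in the space. Csgalnact1, which adds the first N-acetylgalactosamine and so commits a chain to chondroitin, had 11.2 and 12.6 in the space and 25.3 and 23.8 in border-zone cartilage (-0.98, SE 0.13, adjusted p = 2.94e-07). Chsy1, a chondroitin synthase, had 20.9 and 19.1 in the space and 29.4 and 32.7 in border-zone cartilage (-0.61, SE 0.11). Chpf2, a polymerising factor, had 23.9 and 27.7 in the space and 31.4 and 35.5 in border-zone cartilage (-0.36, SE 0.11). In these 3 genes, and in Chst11 and Chst12, both space values lay below both border-zone values, as in 17.8% of all targets. The 4-O-sulfotransferases Chst11 (4.74 and 3.83 in the space and 7.41 and 7.36 in border-zone cartilage; -0.67, SE 0.17) and Chst12 (6.74 and 7.37 and 13.3 and 12.8; -0.80, SE 0.14) passed as well. Chpf, Csgalnact2, Chsy3, Chst13 (a further 4-O-sulfotransferase), Chst3 and Chst7 (6-O-sulfotransferases), Chst14 and the epimerases Dse and Dsel (dermatan sulfate), Chst15 (disulfated residues) and Ust (2-O-sulfation) did not. Their differences lay between -0.26 for Chpf and 0.47 for Chsy3, the chondroitin synthase with the highest difference of the 16.

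Heparan sulfate enzymes did not share one direction. Extl1, an N-acetylglucosaminyltransferase of the exostosin family (chr4:134356373-134372547), had 7.42 and 7.68 in control inter-joint space and 25.3 and 27.2 in control border-zone cartilage (-1.67, SE 0.22, adjusted p = 9.92e-05 in the limma fit over all region types). Sulf1 (chr1:12692197-12861192) had 188 and 202 in the space and 38.4 and 43.3 in border-zone cartilage (2.23, SE 0.35, adjusted p = 0.000832 in that fit). Sulf2 (chr2:166073899-166155683) had 100.01 and 101.7 in the space and 38.04 and 42.5 in border-zone cartilage (1.30, SE 0.23, adjusted p = 0.00238 in that fit). Extl1 thus lay lower in both space values and the endosulfatases higher, with no overlap. That state held for 25.8% of all targets for higher values and 17.8% for lower values. The copolymerase genes Ext1 and Ext2, Extl2 and Extl3, the N-deacetylase/N-sulfotransferases Ndst1 and Ndst2, the epimerase Glce, the 2-O-sulfotransferase Hs2st1 and the 6-O-sulfotransferases Hs6st1 and Hs6st2 had differences between -0.48 and 0.41, and none passed in any of the 3 tests.

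The mean of control perichondrium lay between those of control inter-joint space and border-zone cartilage for Papss2, Extl1, Sulf1 and Sulf2. None of the 40 genes differed between control inter-joint space and perichondrium in the limma fit over all region types (0% of all targets passed, and 2 genes had an unadjusted p under 0.05). Without the reference types 4 did by limma (against 1.6% of targets): Papss2 (-0.94) and Extl1 (-0.73; 13.5 and 12.7 in perichondrium) were lower in the space, and Sulf1 (0.64) and Sulf2 (0.43) higher. None of the 4 passed without control replicate 1, and Papss2 and Sulf1 alone without control replicate 2. By edgeR, Papss2 and Extl1 passed (1.08% of targets). Between control perichondrium and border-zone cartilage the limma fit over all region types also passed 0 genes (against 0.186% of targets, with 8 at an unadjusted p under 0.05), and that of the joint types passed 9 (against 2.7%; 5 and 3 without control replicates 1 and 2). Lower in perichondrium were Papss2 (-0.93), Extl1 (-0.95) and 5 further genes, whose border-zone levels are given above. Papss1 had 17.3 and 15.5 in control perichondrium (-0.56) and Slc26a2 13.4 and 13.6 (-0.87). Ugdh had 15.5 and 14.7 (-0.56), Xylt1 14.55 and 15.2 (-0.68) and Csgalnact1 16.2 and 15.4 (-0.60) in the same tissue. Higher were Sulf1, with 109.8 and 140.3 in control perichondrium (1.58), and Sulf2, with 68.5 and 81.5 (0.88). By edgeR 11 passed (2.52% of targets), with Slc35b2 and Chst11 in addition.

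**Figure D1:**
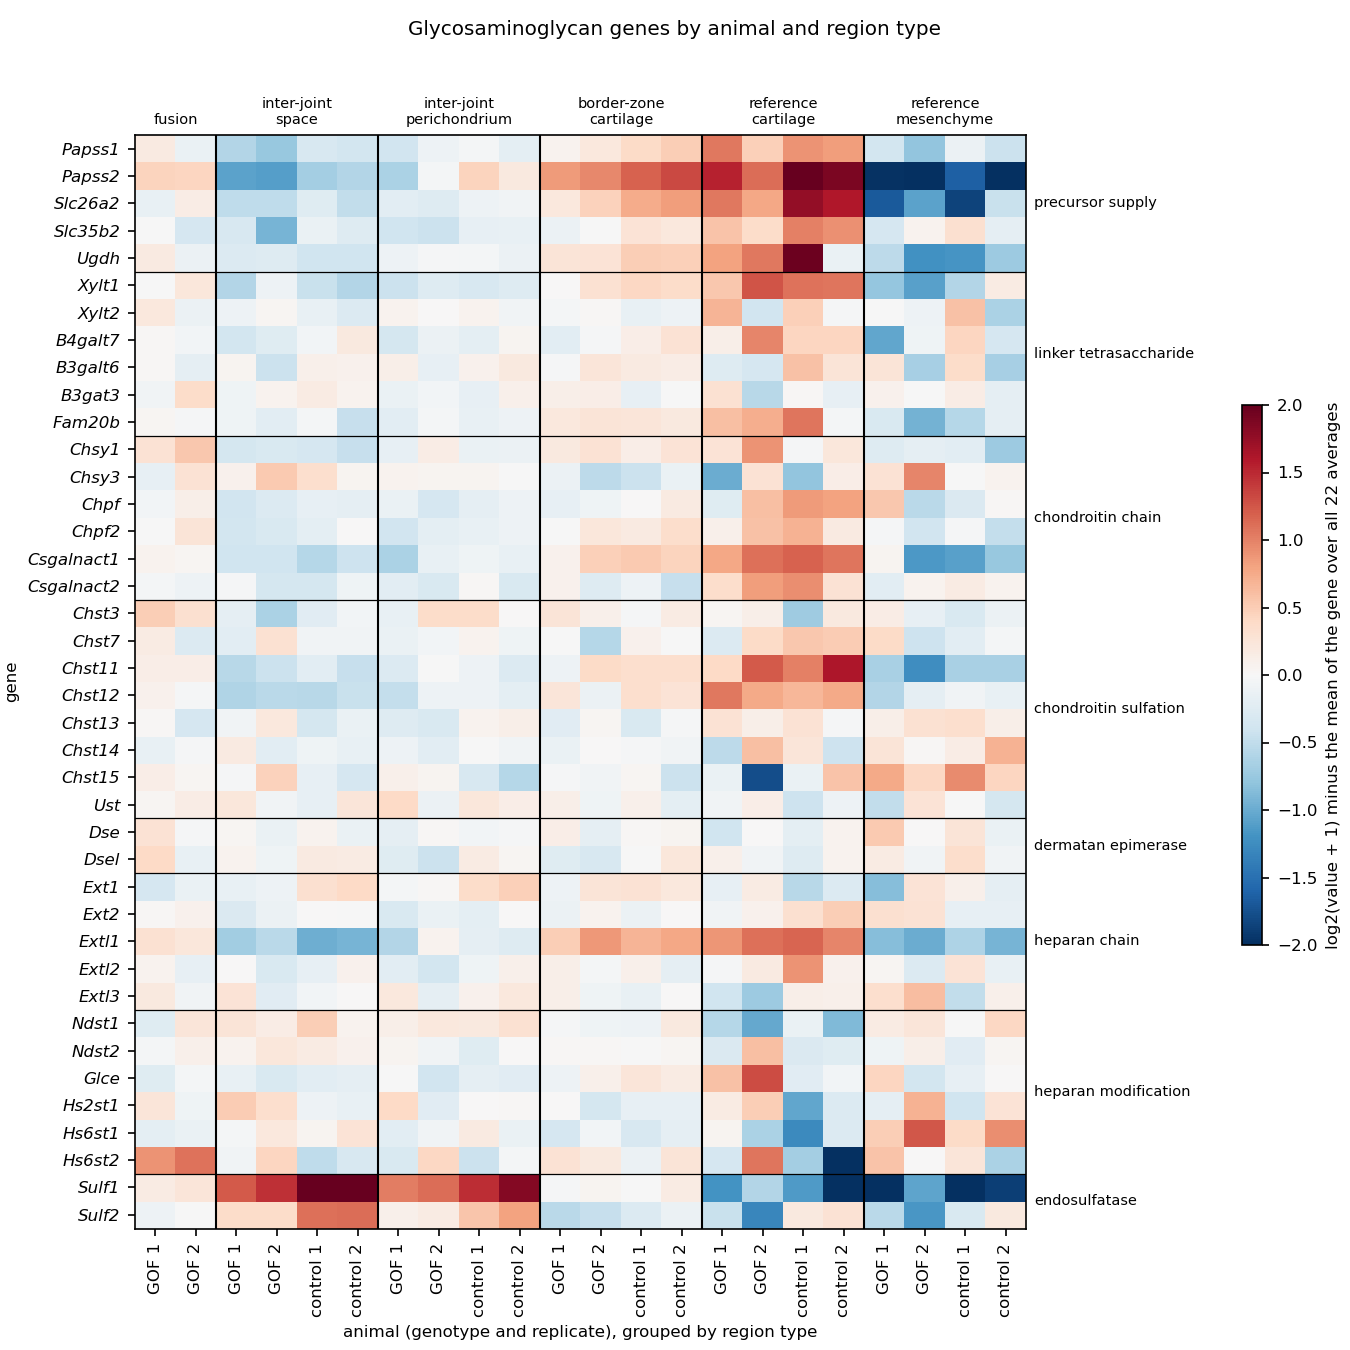
Level of each of the 40 genes (rows, grouped by role) in each animal and region type (columns), as log2(value + 1) minus the gene's mean over the 22 averages, red above and blue below it. Papss2 and Extl1 are blue in inter-joint space and red in the cartilage types, Sulf1 and Sulf2 are red in inter-joint space and perichondrium, and most other rows are pale in the joint types.

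The reference regions, each of 1 region per animal, are given as levels without a test. Papss2 had 115.8 and 87.02 in GOF and 178.7 and 147.5 in control reference cartilage, and 9.25 and 6.35 in GOF and 11.97 and 7.07 in control reference mesenchyme. Slc26a2 had 31.1 and 25.4 in GOF and 51.3 and 45.9 in control reference cartilage, and Csgalnact1 30.3 and 38.1 in GOF and 40.4 and 37.5 in control. Each of these 3 genes had its highest mean over region types in reference cartilage in both genotypes. Sulf1 had 16.3 and 25.4 in GOF and 17.1 and 8.46 in control reference cartilage, and 7.61 and 18.1 in GOF and 3.26 and 9.79 in control reference mesenchyme, below the average of that gene in each animal and joint region type. Sulf2, unlike Sulf1, had control reference cartilage values (52.8 and 56.8) above its control border-zone values.

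In inter-joint space, Sulf1 and Sulf2 were lower in GOF than in control knees by both tests of the joint region types, and no member passed in the fit over all region types. This comparison asks what the Pdgfra allele did in the tissue between the cartilage elements. Sulf1 had levels of 91.8 and 108.3 in GOF inter-joint space, against 188 and 202 in control inter-joint space. Both GOF animals lay below both controls. The log2 difference was -0.96, SE 0.36, adjusted p = 1, in the limma fit over all region types, and SE 0.12, adjusted p = 2.95e-07, in that of the joint types alone. Single regions ranged between 55.6 and 143.2 and between 47.1 and 153.96 in the GOF animals, and between 153.4 and 217.6 and between 171.9 and 255.6 in the controls. Sulf2 had 59.5 and 59.8 in GOF inter-joint space, against 100.01 and 101.7 in controls, without overlap (-0.75; adjusted p = 0.67 in the limma fit over all types and 1.38e-05 in that of the joint types). Ext1, a subunit of the heparan sulfate copolymerase, had 28.97 and 29.9 in GOF and 40.4 and 42.8 in control knees, also without overlap (-0.48; adjusted p = 1 over all types and 0.0134 for the joint types, by limma). In the limma fit of the joint types Sulf1 and Sulf2 passed without each of the 4 animals in turn, whereas Ext1 did not pass without control replicate 1 or 2, and 7 and 5 genes passed without GOF replicates 1 and 2.

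The count of genes that passed in this comparison was thus 0 of 40 in the limma fit over all region types (0.103% of all targets, with 2 genes at an unadjusted p under 0.05), 3 in that of the joint types (2.69%) and 3 by edgeR (2.02%). The third gene by edgeR was Hs2st1, which adds 2-O-sulfate, with 11.1 and 9.65 in GOF and 6.86 and 6.63 in control inter-joint space (0.71, adjusted p = 0.0294 by edgeR). Hs6st2, which adds the 6-O-sulfate that the endosulfatases remove, had 7.67 and 11.3 in GOF and 5.41 and 6.33 in control space. Its difference (0.59, SE 0.43 in the limma fit over all region types) did not pass in any of the 3 tests. The median difference of the 40 genes was -0.06 against -0.04 over all targets. It was 0.04 for the 16 chondroitin and dermatan enzymes, of which 0 passed in any test, and -0.07 for the 13 heparan sulfate enzymes. With regions scaled to the negative probe these medians were 0.05 for the 40 genes, 0.08 for all targets, 0.14 and 0.04. Of the 5 supply genes, all but Ugdh had both GOF values below both controls, a state of 22.9% of all targets, and 0 passed. Interzone markers moved with the endosulfatases here (summed levels above), with 7 of 10 negative and 2 passing as lower in the limma fit over all region types. The 8 fibroblast markers summed to 567 and 699.6 in GOF and 901 and 947 in control space, with 8 of 8 negative and 1 passing as lower. The 8 endothelial markers summed to 59.3 and 60.96 in GOF and 44.5 and 42.99 in control space, and 0 passed. Their part in the result was not tested.

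**Figure D2:**
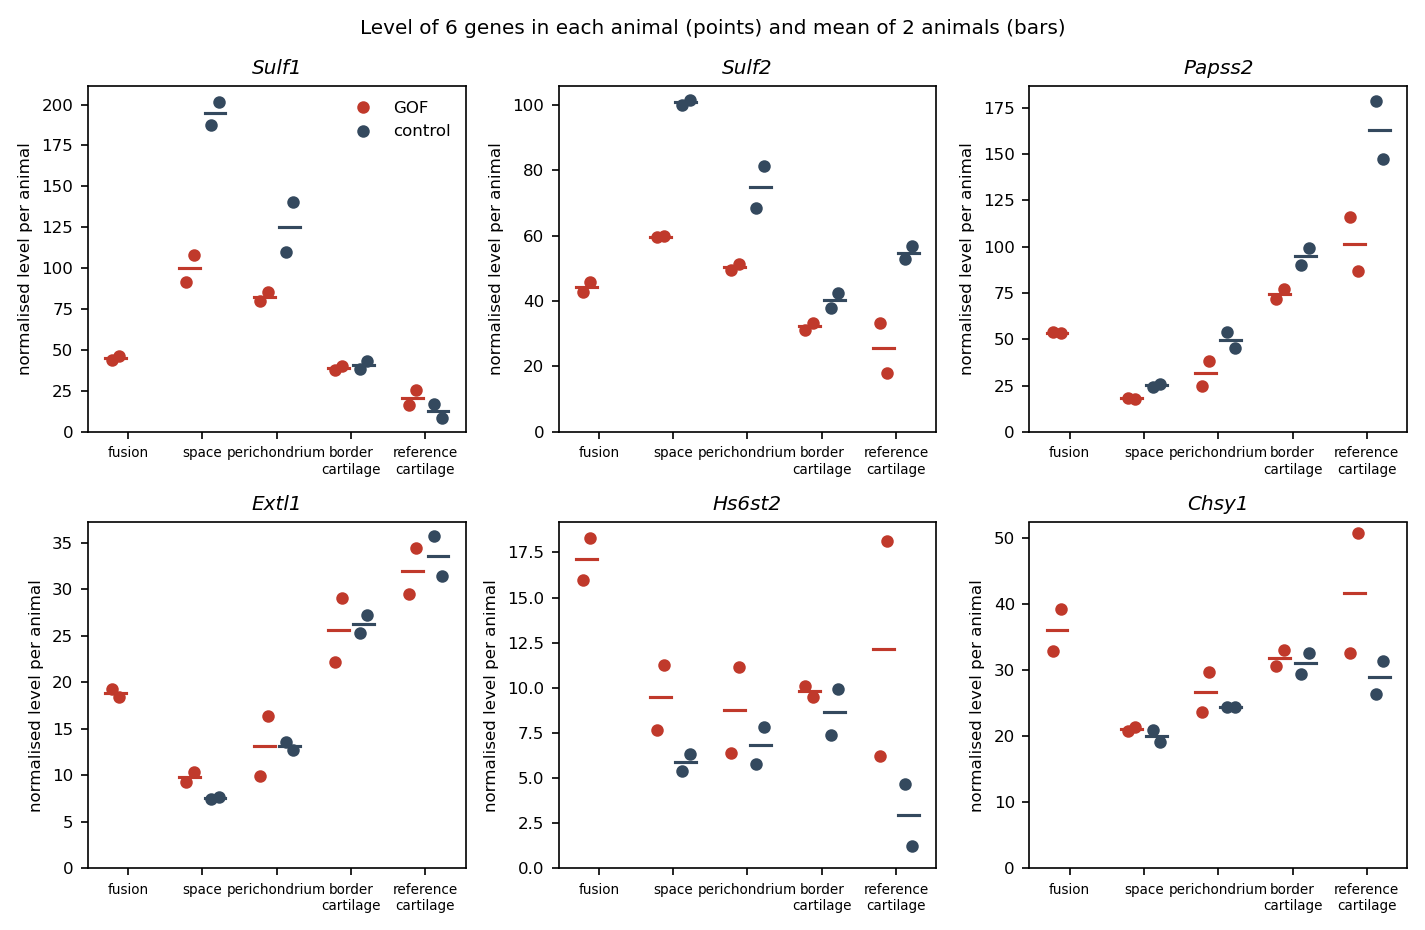
Normalised level (linear axis from 0) of 6 genes in each animal, with fusion at the left and GOF (red) left of control (dark) in each region type, and bars for the mean of 2 animals. Sulf1 and Sulf2 lie lower in GOF than in control inter-joint space and perichondrium, Papss2 and Extl1 are higher in reference cartilage than in inter-joint space in both genotypes, and Hs6st2 is highest in fusion among the joint types.

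In inter-joint perichondrium, both endosulfatase genes were lower in GOF knees by both tests of the joint types. Sulf1 had 79.97 and 85.4 in GOF perichondrium and 109.8 and 140.3 in control perichondrium (-0.58, SE 0.36). Sulf2 had 49.6 and 51.5 in GOF and 68.5 and 81.5 in control perichondrium (-0.56, SE 0.23). Papss2 had 24.97 and 38.3 in GOF and 53.8 and 45.1 in controls (-0.65, SE 0.23). These 3 SEs are those of the limma fit over all region types, not of the fit of the joint types. In all 3 genes the 2 GOF animals lay below both controls, as in 24.1% of all targets, and each had an adjusted p of 0.0036 in the limma fit of the joint types, where they were the 3 genes that passed (1.03% of targets). Without control replicate 2, Papss2 alone passed in that fit, and without control replicate 1 or GOF replicate 1 Sulf1 and Sulf2 alone did, and without GOF replicate 2 it passed 5 genes. By edgeR 3 passed (1.27% of targets), Sulf1, Sulf2 and Chst15. Chst15, which adds a second sulfate to chondroitin residues, was higher (0.70, adjusted p = 0.016 by edgeR). It had 9.25 and 8.91 in GOF and 6.67 and 5.44 in control perichondrium. Papss2 did not pass by edgeR. The summed level of the cartilage markers was 1112 and 2170 in GOF and 1741 and 1556 in control perichondrium. Their part in the Papss2 difference was not tested. In the limma fit over all region types 0 passed (0.0155% of targets), with 2 genes at an unadjusted p under 0.05. Dsel, a dermatan epimerase, had 4.71 and 4.03 in GOF and 6.54 and 5.96 in controls (-0.44, SE 0.27) and did not pass in any test. Differences were negative in 30 of the 40 genes, with a median of -0.10 against -0.05 over all targets, whereas with regions scaled to the negative probe they were negative in 12, with a median of 0.05 against 0.10. The negative probe had medians of 2.98 and 2.09 in GOF and 2.80 and 2.73 in control perichondrium. Interzone markers summed to 248 and 274 in GOF and 314 and 409 in control perichondrium, and fibroblast markers to 558 and 621 in GOF and 691 and 806 in control perichondrium. Of these markers, 6 of 10 and 6 of 8 had negative differences, 0 passed in the limma fit over all region types, and their part in the result was not tested.

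In border-zone cartilage, no gene of the 40 passed in any of the 3 tests. The counts of 0 stand against 0.00517% of targets in the limma fit over all region types, 0.212% in that of the joint types and 0.16% by edgeR, and the numbers of genes at an unadjusted p under 0.05 were 0, 7 and 5. The largest difference was that of Slc26a2, with 16.8 and 20.2 in GOF and 24.8 and 26.4 in control border-zone cartilage (-0.45, SE 0.31). Papss2 followed among the supply genes, with 71.7 and 77.3 in GOF and 90.3 and 99.3 in controls (-0.34, SE 0.23). In all 5 supply genes both GOF animals lay below both controls, as they did in 24% of all targets, with differences between -0.45 and -0.22. Dsel had 4.73 and 4.38 in GOF and 5.73 and 6.92 in controls (-0.39, SE 0.27). B4galt7, which adds the first galactose of the linker, had 6.64 and 7.65 in GOF and 8.69 and 9.77 in controls (-0.33, SE 0.32). Sulf2 had 31.3 and 33.4 in GOF and 38.04 and 42.5 in controls (-0.31, SE 0.23). Both GOF animals lay below both controls in these 3 genes too. Sulf1 had 38.03 and 40.2 in GOF and 38.4 and 43.3 in control border-zone cartilage, where the genotypes overlapped (-0.06, SE 0.36, and 0.09 with regions scaled to the negative probe).

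**Figure D3:**
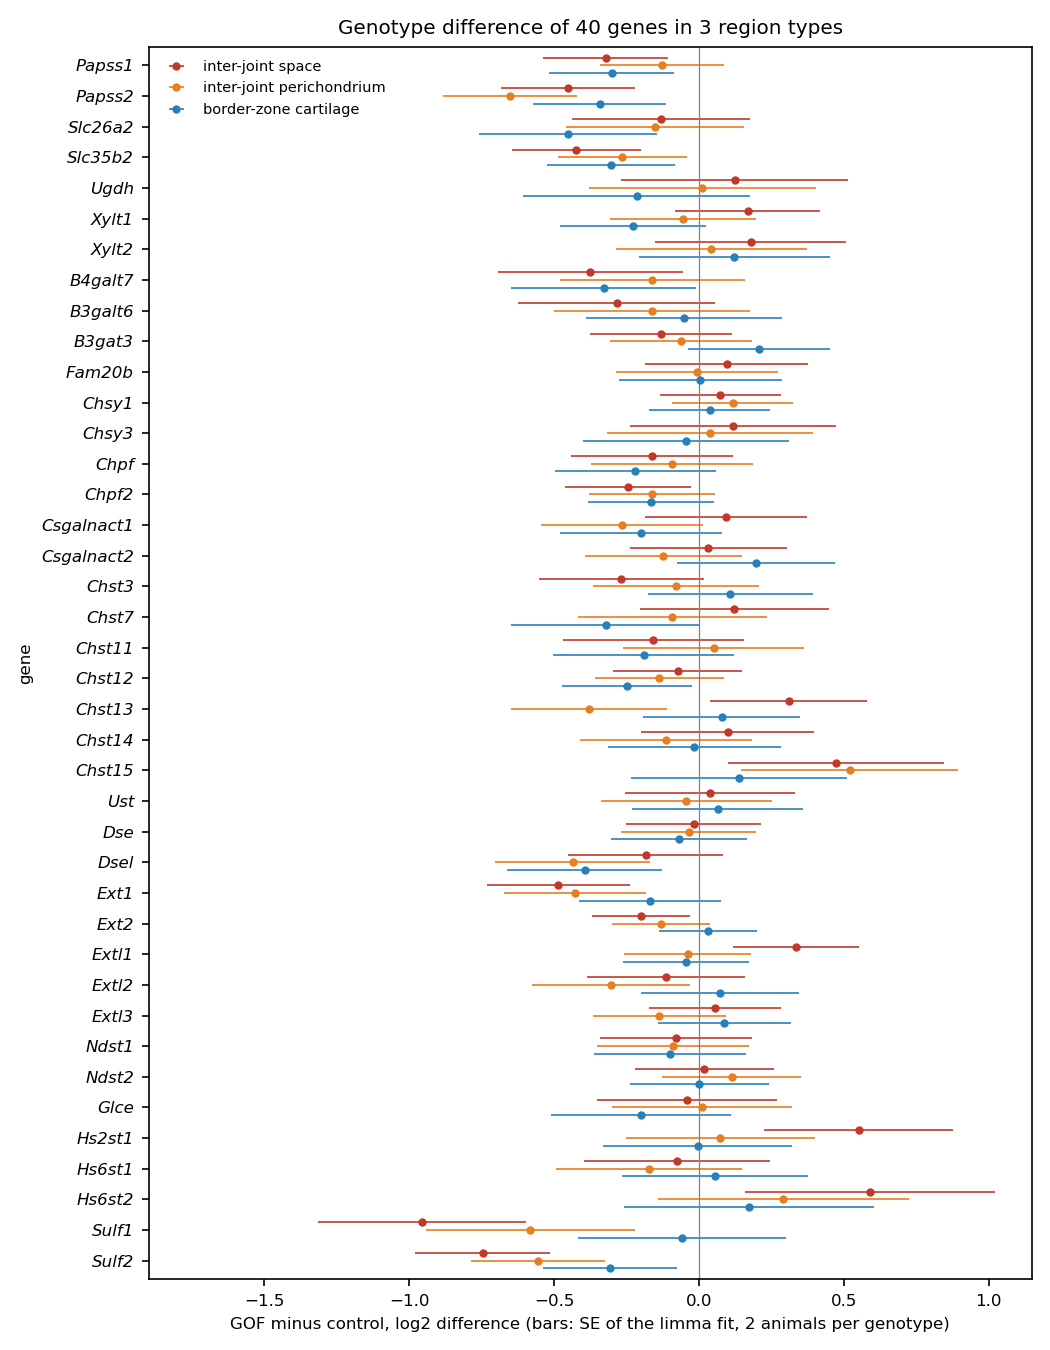
GOF minus control log2 difference of each of the 40 genes (rows, in order of role) in 3 region types, with the SE of the limma fit over all region types and 2 animals per genotype. Sulf1 and Sulf2 lie to the left of 0 in inter-joint space and perichondrium, and most other bars reach across 0.

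The difference between the genotype effects of 2 region types was tested as an interaction. For Sulf1, the effect in inter-joint space minus that in border-zone cartilage was -0.90, with an adjusted p of 1 in the limma fit over all region types and 0.000464 in that of the joint types, where it was the 1 gene of 40 that passed (0.765% of targets). It did not pass there without control replicate 1. By edgeR 0 of the 40 genes passed (0.388% of targets), with 3 at an unadjusted p under 0.05. The limma fit over all types passed 0 genes in each of the 3 interactions, with 0 at an unadjusted p under 0.05 (0% of targets passed). That of the joint types passed 0 genes in the other 2 interactions (0.0155% and 0.0672% of targets, with 3 and 1 genes at an unadjusted p under 0.05). The endosulfatase effect is therefore not shown to differ between inter-joint space and perichondrium (Sulf1 -0.38, SE 0.50 in the limma fit over all region types).

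In fusion, which was drawn in GOF knees alone, the endosulfatase genes were lower and Papss2 and Extl1 higher than in control inter-joint space. Fusion was drawn as Sox9-high and inter-joint space as Sox9-low, so the choice of regions and a change in tissue cannot be told apart. Sulf1 had 43.6 and 46.1 in fusion and 188 and 202 in control inter-joint space (-2.09, SE 0.36, adjusted p = 0.00369 in the limma fit over all region types). Sulf2 had 42.8 and 45.9 in fusion and 100.01 and 101.7 in control space (-1.17, SE 0.23, adjusted p = 0.0135). These were the 2 genes that passed as lower, and in both the fusion values lay below the control values, as in 24.6% of all targets. Fusion regions with the general interzone tag had Sulf1 at 75.02 and 74.4, and those without it at 14.4 and 20.5. For Sulf2 the values were 53.5 and 57.5 with the tag and 27.2 and 31.5 without it. Papss2 had 53.7 and 53.2 in fusion and 24.3 and 25.9 in control space (1.06, SE 0.23, adjusted p = 0.0273 in the same limma fit). Extl1 had 19.3 and 18.4 in fusion and 7.42 and 7.68 in control space (1.21, SE 0.22, adjusted p = 0.00589). These 4 of 40 genes stand against 0.729% of all targets. Sulf1 alone passed in this fit without control replicate 1 or 2, and 0 passed without GOF replicate 1 or 2, or with regions scaled to the negative probe.

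The limma fit of the joint types passed 11 genes, 8 higher and 3 lower (5.21% of targets), and edgeR passed 10 (4.77%). Without control replicate 2 that limma fit passed 6, which were Papss2, Extl1, Hs6st2, Chsy1, Sulf1 and Sulf2. Hs6st2 had the largest positive difference of the 40, with 15.97 and 18.3 in fusion and 5.41 and 6.33 in control space (1.40, SE 0.18, adjusted p = 2e-07 in the limma fit of the joint types). Chsy1 had 32.9 and 39.3 in fusion and 20.9 and 19.1 in control space (0.82, SE 0.12, adjusted p = 5.56e-06, same fit). Xylt1 had 18.4 and 21.8 in fusion and 13.2 and 11.99 in control space (0.63, SE 0.14). In these genes both fusion animals lay above both controls, as in 17.3% of all targets. Ugdh (18.2 and 14.7 in fusion and 11.9 and 11.96 in control space; 0.42), Csgalnact1 (18.1 and 17.8 and 11.2 and 12.6; 0.55) and Chst12 (11.02 and 10.1 and 6.74 and 7.37; 0.52) also passed as higher in that fit. Ext1 was lower, with 25.4 and 29.4 in fusion and 40.4 and 42.8 in control space (-0.59, SE 0.12). By edgeR, Chst3, a chondroitin 6-O-sulfotransferase, passed as higher (0.65) and Csgalnact1 and Chst12 did not. Of the 16 chondroitin and dermatan enzymes 14 had positive differences (median 0.18, against -0.04 over all targets), and of the 13 heparan sulfate enzymes 6 did (median -0.01). With regions scaled to the negative probe 16 and 8 did, with medians of 0.35 and 0.14 against 0.11 over all targets. Of the 10 cartilage markers, 7 passed as higher in fusion than in control space in the limma fit over all region types. Of the 10 interzone markers, 3 passed as lower and 1 as higher. The 8 fibroblast markers summed to 926 and 881 in fusion and 901 and 947 in control space. They summed to 567 and 699.6 in GOF space and 478 and 492 in GOF border-zone cartilage. The part of all these markers in the differences was not tested.

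Within GOF knees, Papss2 was higher in fusion than in the inter-joint space of the same animals, and in the tests of the joint types further supply and chondroitin genes were higher and Sulf1 lower. Papss2 had 53.7 and 53.2 in fusion and 18.3 and 17.9 in GOF inter-joint space (1.51, SE 0.23, adjusted p = 0.00558 in the limma fit over all region types), the 1 of 40 genes that passed there (0.222% of targets), and it did not pass there without any one of the 4 animals. The limma fit of the joint types passed 15, 13 higher and 2 lower (4.57% of targets), and edgeR 8, 7 higher and 1 lower (2.52%). Sulf1 was lower, with 43.6 and 46.1 in fusion and 91.8 and 108.3 in GOF space (-1.14, SE 0.11, adjusted p = 7.62e-10, joint types). Sulf2 had 42.8 and 45.9 in fusion and 59.5 and 59.8 in GOF space (-0.42, SE 0.11, adjusted p = 0.0106, joint types). These fusion averages pool regions with and without the general interzone tag, which were unlike. Sulf1 had 75.02 and 74.4 in tagged regions and 14.4 and 20.5 in untagged ones. Sulf2 had 53.5 and 57.5 in tagged regions, near its GOF space values, and 27.2 and 31.5 in untagged ones. In both genes the 2 fusion values lay below both GOF space values, as in 17.9% of all targets, and Sulf2 did not pass by edgeR.

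The genes higher in fusion than in GOF inter-joint space in the limma fit of the joint types included 4 of the 5 supply genes. Papss1 had 20.4 and 16.1 in fusion and 11.6 and 10.2 in GOF space (0.69, SE 0.13), Slc26a2 12.9 and 16.1 and 9.85 and 9.89 (0.50, SE 0.13), and Slc35b2 17.96 and 14.02 and 14.2 and 9.04 (0.45, SE 0.14). The 2 tissues overlapped for Slc35b2 and not for the other 3. They also included 6 of the 16 chondroitin and dermatan enzymes. Chsy1 had 32.9 and 39.3 in fusion and 20.8 and 21.4 in GOF space (0.74, SE 0.11). Chst3 had 12.05 and 10.6 in fusion and 7.19 and 4.99 in GOF space (0.81, SE 0.16). The levels of these 2 genes in fusion also lay above those in GOF border-zone cartilage, at 30.6 and 33.1 for Chsy1 and 10.2 and 8.95 for Chst3, with overlap for Chsy1. Chst11 had 6.29 and 6.32 in fusion and 3.51 and 3.95 in GOF space (0.63), Chst12 11.02 and 10.1 and 6.51 and 6.79 (0.60), Chpf2 27.5 and 33.3 and 21.1 and 22.01 (0.47), and Csgalnact1 18.1 and 17.8 and 12.8 and 12.8 (0.46). Xylt1 (18.4 and 21.8 in fusion and 11.9 and 17.1 in GOF space; 0.46) was the 1 linker gene. Of the heparan sulfate enzymes, Extl1 (19.3 and 18.4 in fusion and 9.22 and 10.4 in GOF space; 0.88) and Hs6st2 (15.97 and 18.3 and 7.67 and 11.3; 0.81) were higher. Fusion and space did not overlap in any of the chondroitin, linker and heparan sulfate genes named here as higher, as in 18.2% of all targets.

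Few of the 40 genes separated fusion from GOF border-zone cartilage. None passed in the limma fit over all region types (0.0103% of targets, 0 genes at an unadjusted p under 0.05) or by edgeR (0.476% of targets, 10 at an unadjusted p under 0.05), and 3 passed in the limma fit of the joint types (1.19%). Papss2 was lower, with 53.7 and 53.2 in fusion and 71.7 and 77.3 in GOF border-zone cartilage (-0.47, SE 0.12, adjusted p = 0.0434). Hs6st2 was higher, with 15.97 and 18.3 in fusion and 10.1 and 9.48 in border-zone cartilage (0.75, SE 0.17, adjusted p = 0.00948). Sulf2 was higher, with 42.8 and 45.9 in fusion and 31.3 and 33.4 in border-zone cartilage (0.44, SE 0.11, adjusted p = 0.0168), although its sign turned to -0.14 when the interzone-tagged fusion regions were left out. Without control replicate 1 or 2 Hs6st2 alone passed in that fit, and without GOF replicate 2 none did. All 3 genes had no overlap between the 2 tissues, and 21.2% of all targets lay higher and 11.4% lower in fusion without overlap. The difference for Extl1 was -0.41, SE 0.14, with 19.3 and 18.4 in fusion and 22.2 and 29.1 in border-zone cartilage, and its adjusted p in the limma fit of the joint types was 0.223. On the log2 scale the fusion mean of 23 genes lay between the means of GOF inter-joint space and border-zone cartilage, that of 14 above both and that of 3 below both.

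The difference between space and border-zone cartilage in controls and that between fusion and space in GOF knees rest on different animals. Over the 40 genes they ran opposite ways, with Pearson's r of -0.87 and Spearman's rho of -0.82, and 29 of the 40 genes had opposite signs. Over the 10760 targets above 2 times the negative probe, r was -0.50 and rho -0.37, and over all 19346 targets -0.40 and -0.24. These are correlations across genes, which are not independent replicates, and the extremes (Papss2, Extl1, Sulf1 and Sulf2) carry much of the spread. In both comparisons a space drawn as Sox9-low is set against cartilage or a Sox9-high tissue. Opposite signs can therefore follow from how the regions were drawn, which was not tested.

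**Figure D4:**
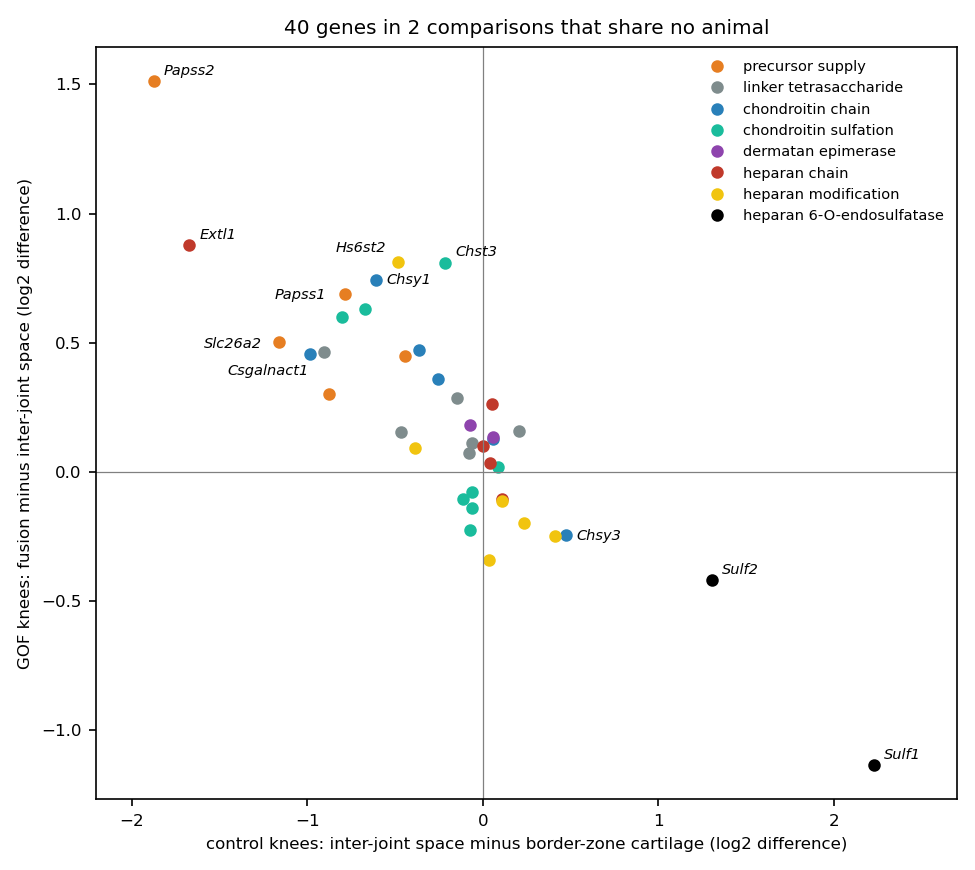
Each point is 1 of the 40 genes, coloured by role, with the control log2 difference of inter-joint space minus border-zone cartilage on the x axis and the GOF difference of fusion minus inter-joint space on the y axis, both from the limma fit over all region types. Papss2 and Extl1 lie at the upper left and Sulf1 at the lower right, and 29 genes have opposite signs on the 2 axes.

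The 17 fusion regions were not alike. In GOF replicates 1 and 2, 6 and 5 of them also carry the general interzone tag and 3 and 3 do not. Sulf1 had 75.02 and 74.4 in tagged regions of the 2 animals and 14.4 and 20.5 in untagged regions. Sulf2 had 53.5 and 57.5 in tagged and 27.2 and 31.5 in untagged regions. Both genes were lower without the tag in both animals, a description for which no test was run. Over single regions, Sulf1 reached 125.1 in tagged and 25.8 in untagged regions, with the lowest tagged region at 22.8. Extl1 ran the other way, with 15.9 and 17.2 in tagged and 28.4 and 20.6 in untagged regions, and so did Hs6st2, with 13.4 and 16.4 in tagged and 22.7 and 21.97 in untagged regions. Papss2 had 48.9 and 52.8 in tagged and 64.96 and 53.8 in untagged regions. Gdf5, the growth factor of the joint interzone, had a median of 23.9 in the 11 tagged and 6.66 in the 6 untagged regions, and Col2a1, the main cartilage collagen, 1698 and 3437.

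Within the fusion regions of each animal, Sulf1 and Sulf2 varied together, with r of 0.96 over 9 and 0.96 over 8 regions, and Sulf1 varied with Gdf5 (r of 0.90 and 0.94). In inter-joint space the Sulf1 and Sulf2 correlation was 0.65 and 0.79 in the GOF animals and -0.07 and 0.50 in the controls. It was 0.30 and 0.39 in GOF perichondrium and 0.54 and 0.77 in control perichondrium. In border-zone cartilage it was 0.45 and -0.07 in the GOF animals and 0.03 and 0.50 in the controls. The Sulf1 and Gdf5 correlation was 0.67 and 0.77 in GOF and 0.41 and 0.65 in control inter-joint space, 0.24 and -0.30 in GOF and 0.74 and 0.83 in control perichondrium, and between -0.07 and 0.44 in border-zone cartilage. Papss2 and Col2a1 had r between 0.39 and 0.92 over the regions of each animal and joint region type. The regions of 1 animal share a section and a probe pool, and they differ in depth, so these values are descriptions without a test.

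**Figure D5:**
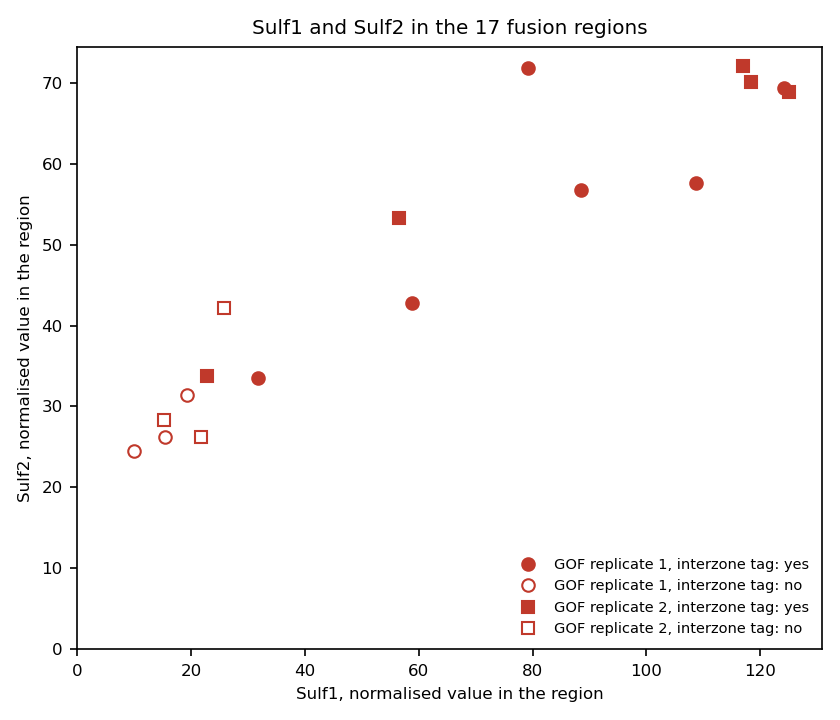
Each point is 1 of the 17 fusion regions, with the normalised value of Sulf1 on the x axis and of Sulf2 on the y axis, by animal (shape) and interzone tag (filled for tagged). Tagged regions extend to 125.1 for Sulf1 and 72.1 for Sulf2, and untagged regions lie at the lower left, up to 25.8 and 42.2.

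Other genes of the pathway were followed in 4 lists, of synthesis, heparan sulfate core, chondroitin and dermatan core, and degradation genes. Of 22 further synthesis genes measured, 3 passed as higher in control inter-joint space than in control border-zone cartilage in the limma fit over all region types, and 0 as lower. Of all targets, 1.3% passed there in either direction. Hs3st3a1 and Hs3st3b1, which add 3-O-sulfate to heparan sulfate, had 17.3 and 16.6 and 19.6 and 18.6 in the space and 4.66 and 4.40 and 6.30 and 6.89 in border-zone cartilage (log2 differences 1.70 and 1.40). Chst5, an N-acetylglucosamine 6-O-sulfotransferase, had 23.2 and 22.1 in the space and 5.67 and 5.09 in border-zone cartilage (1.89). Chst5 was lower in fusion than in control space, with 7.49 and 6.35 in fusion and 23.2 and 22.1 in control space (-1.58, SE 0.27, adjusted p = 0.00369, same fit). In that comparison 0.729% of all targets passed. By genotype, 0 of the 22 passed in the limma fit over all region types. In that of the joint types Hs3st3a1 (8.71 and 7.13 in GOF and 17.3 and 16.6 in control space, -1.01) and Chst5 (8.71 and 12.5 in GOF and 23.2 and 22.1 in control space, -1.05) were lower in GOF inter-joint space, and Chst5 also in perichondrium (-0.67). Of all targets, 2.69% passed by genotype in that fit in inter-joint space and 1.03% in perichondrium.

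Among core proteins, 1 of 14 for heparan sulfate and 5 of 15 for chondroitin and dermatan sulfate passed between control space and border-zone cartilage in the limma fit over all region types. Of all targets, 1.3% passed there. Gpc3, a glypican, had 90.1 and 104.3 in the space and 225 and 246 in border-zone cartilage (-1.27). Acan, the aggrecan gene, had 49.5 and 47.4 in the space and 243 and 247 in border-zone cartilage (-2.31), and Cspg4 (-1.37), Epyc (-1.36) and Col9a2 (-2.14) were lower in the space too. Vcan, the versican gene, was higher there (1.27). In fusion, Acan had 150.2 and 164.1, against 49.5 and 47.4 in control space (1.68, SE 0.29, adjusted p = 0.00419) and 38.7 and 60.3 in GOF space (1.68, SE 0.29, adjusted p = 0.0177). Gpc3 (1.16), Cspg4 (1.09) and Col9a2 (1.64) passed as higher than in control space as well. Of all targets, 0.729% passed for fusion minus control space and 0.222% for fusion minus GOF space.

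No core protein passed by genotype in the limma fit over all region types. In that of the joint types, Bgn, the biglycan gene, was lower in all 3 joint types (-1.11, -0.94 and -0.70 in space, perichondrium and border-zone cartilage). Its levels were 22.1 and 37.7 in GOF and 62.9 and 64.6 in control inter-joint space, without overlap. In inter-joint space Gpc3 (0.43), Gpc6 (0.66) and Agrn, the agrin gene (0.80), were higher in GOF knees and Sdc1, a syndecan (-0.55), lower. Gpc6 was also higher in perichondrium (0.62), and in border-zone cartilage Vcan was higher (0.49) and Epyc lower (-0.65). Of all targets, 2.69%, 1.03% and 0.212% passed by genotype in that fit in space, perichondrium and border-zone cartilage. Of 17 genes of glycosaminoglycan degradation, 0 passed in any comparison of fusion, space, perichondrium and border-zone cartilage described here, in either limma fit. Between 0% and 7.43% of all targets passed in these comparisons. In the limma fit over all region types, the lowest unadjusted p of that list was that of Ids for fusion minus control inter-joint space (0.52, SE 0.32, unadjusted p = 0.12, adjusted p = 1).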

How the data were processed

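The submitters drew regions on knee sections of 4 embryos, 2 GOF and 2 control, and read them with the Mouse Whole Transcriptome Atlas probe set, per the labels' protocols. Per the file headers, the deposited table holds linear signal values, which the authors obtained by bringing the counts of every region to the same upper quartile. The submitters' processing notes list Seurat and mm10 without saying what each was used for; how reads became counts is not given there. Within a column, 99.98% of values lay within 0.01 of a whole multiple of 1 step, and counts were recovered from these steps. The edgeR test on them, as an alternative, called between 0 and 14 of the 40 genes in a comparison. It used counts summed over the regions of each animal and joint region type, so deeper regions weighed more. It had no term for the animal, so the region types of 1 animal were treated as independent. Recovered totals ran between 55470 and 617053 per region.

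Each region was assigned to its animal by scan name and to its type by its tags. One region tagged with a misspelt type name was placed with inter-joint space. Values were averaged as log2(value + 1), with a pseudocount of 1, per animal and type (22 averages). The fit used lmFit and eBayes with trend in limma 3.58.1 (R 4.3.3), with animal as random block, over all targets, with Benjamini-Hochberg adjustment within each contrast and a threshold of 0.05. A permutation test over 2 and 2 animals cannot reach 0.05, so adjusted p-values rest on the spread limma pools. The labels do not say whether animals share a litter, and all samples carry 1 batch label. Alternatives were a fit of the joint region types alone, edgeR 4.0.16 (glmQLFit, TMM normalization), a filter on low values, a pseudocount of 3, scaling to the negative probe, medians of regions, leaving out interzone-tagged regions or each animal, a replicate block and each genotype alone. Scripts were tested on simulated data. The 40 genes, the pathway lists and the tests were chosen with earlier results of these data known. Every one of the 40 genes is named, and values of each animal are given for genes that passed in the fit over all types or in that of the joint types and for the 5 largest genotype differences per region type. Pathway genes are named where they passed, otherwise by the lowest p. Gene positions are those of RefSeq (GRCm38.p6). A no-template control was not analysed here.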

Additional observations from a re-analysis of the deposited data

Results flagged for a closer look

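In 1 of 3 tests the genotype effect on Sulf1 differed between inter-joint space and border-zone cartilage. In inter-joint space Sulf1 had 91.8 and 108.3 in GOF and 188 and 202 in control knees, and in border-zone cartilage 38.03 and 40.2 in GOF and 38.4 and 43.3 in control knees. The difference of the 2 effects was -0.90 on the log2 scale, and the interaction term of the limma fit of the joint region types had an adjusted p of 0.000464. In the limma fit over all region types the adjusted p was 1, whereas edgeR gave -0.86 (adjusted p = 0.111). The interaction did not pass in the fit of the joint region types without control replicate 1. The effect in inter-joint space had the same direction in both GOF animals against both controls.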

How the results depend on the processing

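Numbers of the 40 genes that passed depended most on which region types entered the fit. The joint region types alone gave 3 genes for GOF minus control in inter-joint space, 3 in perichondrium, 1 for the interaction of inter-joint space with border-zone cartilage, 11 for fusion minus control inter-joint space, 15 for fusion minus GOF inter-joint space, 3 for fusion minus GOF border-zone cartilage, and in controls 15 for space minus border-zone cartilage, 4 for space minus perichondrium and 9 for perichondrium minus border-zone cartilage. EdgeR gave 3, 3, 0, 10, 8, 0, 14, 2 and 11 in the same order, and the fit over all types 0, 0, 0, 4, 1, 0, 4, 0 and 0. Scaling to the negative probe left 0 genes in fusion against control space and 0 against GOF space. It shifted the median difference of all targets by 0.16 for fusion minus control space and, for GOF minus control, by 0.11 in space, 0.15 in perichondrium and 0.13 in border-zone cartilage, and by under 0.10 elsewhere. Without interzone-tagged regions 4 genes passed for fusion minus GOF space, and GOF animals fitted alone gave 0. A pseudocount of 3 and medians of regions each gave 1 gene for control perichondrium minus border-zone cartilage. The filter on low values moved no count by over 1.5 times.

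Leaving out each animal in turn gave 0 to 1 genes for fusion minus control space, 0 for fusion minus GOF space and 1 to 5 for control space minus border-zone cartilage. Combined with the joint region types alone, a combination chosen after seeing the data, it gave 2 to 7 genes for GOF minus control in space, 1 to 5 in perichondrium, 0 to 1 for the interaction, 6 to 13 for fusion minus control space, 10 to 11 for fusion minus GOF space, 0 to 4 for fusion minus GOF border-zone cartilage, and in controls 9 to 18 for space minus border-zone cartilage, 0 to 5 for space minus perichondrium and 3 to 13 for perichondrium minus border-zone cartilage. Border-zone cartilage kept 0 for the genotype throughout. Of 73 differences of genes that passed in a limma fit or were among the 5 largest by genotype, the only change of direction was that of Sulf2 in fusion minus GOF border-zone cartilage, -0.14 without the tagged regions. Of the other 407 differences of the 40 genes, 221 changed sign under at least 1 alternative, 54 of them when scaled to the negative probe. The causes of these changes were not tested. Animals with the same replicate number deviated together only weakly over all targets (correlations of 0.03, 0.05 and 0.05). With 2 animals per genotype this cannot settle whether the numbers pair the animals. The replicate block changed no count. Genes near the negative probe (B3galt6, Chst7, Chst13 and Glce) could show only large differences, and 2 animals per genotype limit every comparison.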
